A study of Bos taurus with 3 samples.

Results

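The SWI/SNF, ISWI, CHD and INO80 remodeler genes of BFF116 cells were examined. They were chosen by a pattern of gene symbols, with earlier results of these data known. Of the 31903 genes listed, 56 matched, among them ARID family genes whose products lie outside SWI/SNF. BFF116 is a culture of fibroblasts from a bovine fetus whose nuclei are put into eggs to clone cattle (somatic cell nuclear transfer). RNA was sequenced from 3 replicates of 1 group, each of 70000 cells kept without serum for the last 48 h to bring their cell cycles into step. No unstarved, treated or reprogrammed cells belong to the samples used here, so no comparison between conditions was made. The labels name no genotype, strain, animal or age for these cells, nor whether each replicate was a culture or animal of its own, so part of their spread may be technical.

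Chromatin remodelers are enzymes that use ATP to slide, evict or exchange nucleosomes and so set which DNA other proteins can reach. Their motor belongs to the SNF2 helicase-like family, and most motors work inside large complexes whose other subunits decide where they bind. In nuclear transfer the chromatin of the donor nucleus has to be rebuilt in the egg cytoplasm, and the remodelers that a donor cell carries are part of the state from which this starts.

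Gene counts numbered 8608350, 4842331 and 7122651 in replicates 1 to 3. All 8 of 8 fibroblast markers were measured, meaning at least 1 CPM (counts per 1000000 gene counts) in each library, with a summed level of 97272 to 108775 CPM. The summed levels of epithelial, leukocyte and skeletal muscle markers lay between 0.202 and 4.23 CPM, and none of these markers was measured. Of them EPCAM, PTPRC, CD14, MYOD1 and DES had 0 reads. Endothelial markers summed to 5.04 to 12.2 CPM, with KDR at 0 reads and CDH5 without a row. The other endothelial markers were measured, PECAM1 at 4.51, 2.02 and 1.41 CPM and TEK at 7.72, 3.02 and 7.04 CPM in replicates 1 to 3. Levels are CPM on TMM-scaled library sizes, as mean ± SD of n = 3, and are not corrected for transcript length. No transcript lengths were used, so an order of CPM or reads between genes also carries their lengths and is not an order of transcript levels. In such bulk RNA, fewer cells of a type and less RNA per cell cannot be told apart.

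Most remodeler genes were well represented in these fibroblasts. Of the 56 genes, 48 were measured, 85.7% against a background of 34.6% of all genes in the table and 61.2% of genes with a read. At 10 CPM or more in every library there were 41 remodeler genes (73.2%, background 20.6%), and at 100 CPM or more there were 15 (26.8%, background 4.33%). Their median was 62.7 CPM, beside 4.96 CPM over the 18039 genes with a read and 20.5 CPM over the 11047 measured genes. Together they held 0.548, 0.532 and 0.554% of gene counts in replicates 1 to 3. Reads were uneven among them: SMARCA5 alone had 14.7% of the 56 genes' reads, SMARCA5 with ARID5B had 25.3%, and the 10 genes with the most reads had 56.1%. The 8 genes under 1 CPM in some library were ACTL6B, DPF1, DPF3, ARID3B, ARID5A, CHD5, INO80B and INO80E. MTA1 and MBD2, which the rule also covers, had no row among the counts used here and so were not analysed.

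**Figure D1:**
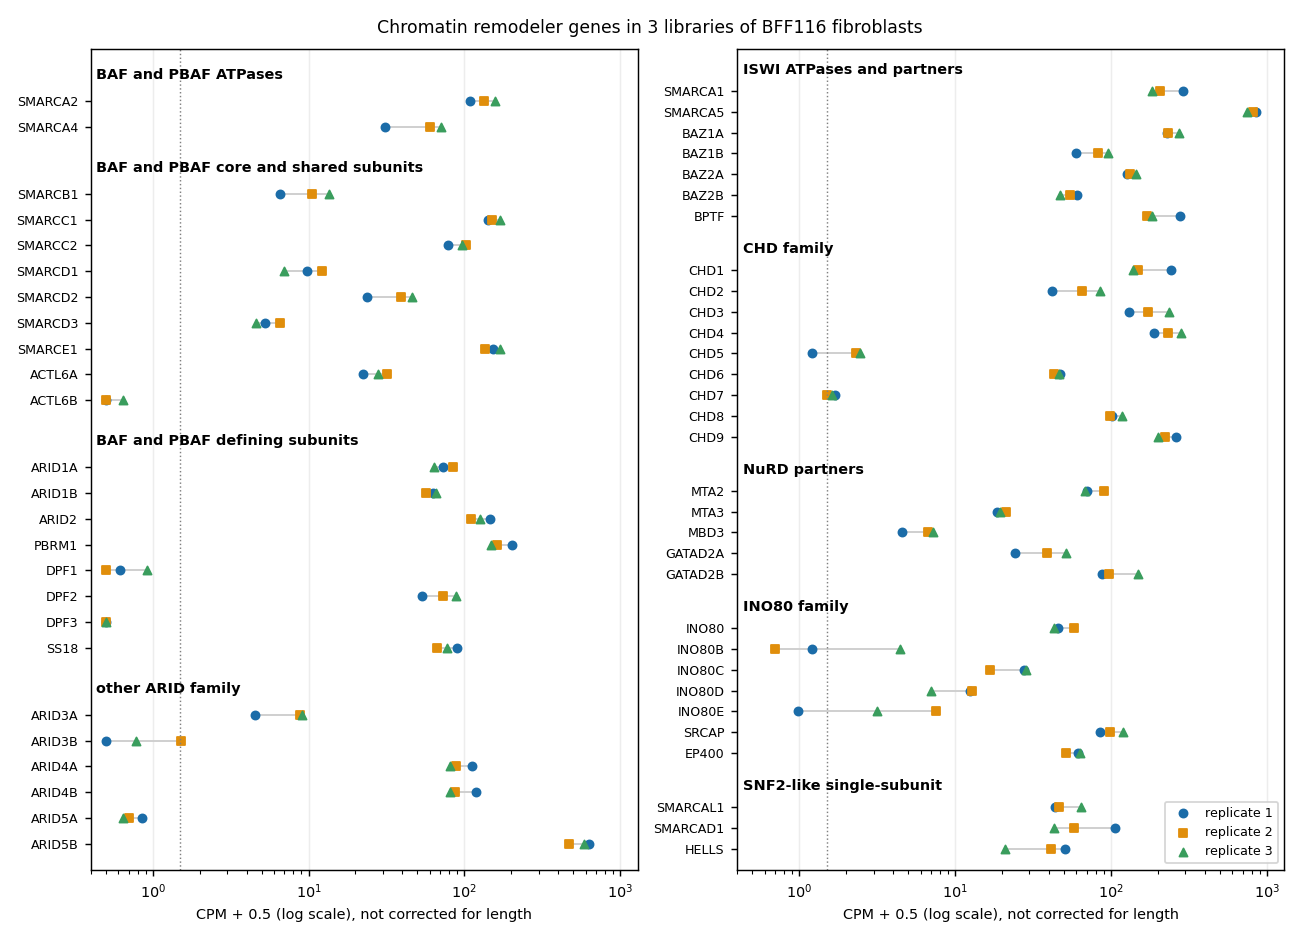
CPM + 0.5 on a log axis for the 56 remodeler genes by complex, with a point for each of 3 libraries (circles, replicate 1; squares, replicate 2; triangles, replicate 3), a grey line over their range and a dotted line at 1 CPM. SMARCA5 lies between 752 and 853 CPM, and 8 genes have a point to the left of the dotted line.

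The SWI/SNF complexes, called BAF and PBAF, are driven by 1 of 2 motors, SMARCA2 (BRM) or SMARCA4 (BRG1), and both were present. SMARCA2 stood at 109, 134 and 156 CPM in replicates 1 to 3. SMARCA4 stood at 30.6, 59.4 and 69.8 CPM. Both were lowest in replicate 1 and highest in replicate 3, and SMARCA4 spread 2.28-fold between these libraries against 1.44-fold for SMARCA2. SMARCA4 accounted for 22.0% (19.7 to 24.5%) of the reads of the pair in replicate 1, 30.8% (27.9 to 33.8%) in replicate 2 and 30.9% (28.6 to 33.2%) in replicate 3, with exact binomial 95% intervals that cover counting error only. The interval of replicate 1 lay below both others. A fixed transcript length cancels in this contrast between libraries, but an effect of length that differs between libraries was not tested.

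The shared core of these complexes was present with the exception of the neuronal actin-related subunit. SMARCC1 and SMARCC2, the paired scaffold subunits (BAF155 and BAF170), were at 152 ± 14.0 and 92.0 ± 12.9 CPM, and SMARCE1 (BAF57), which carries an HMG box, was at 152 ± 16.4 CPM. SMARCC1, the highest of the core in mean CPM, stood at 140.3, 149 and 168 CPM in replicates 1 to 3. SMARCB1 (BAF47), the subunit lost in rhabdoid tumours, stood at 6.06, 10.1 and 12.9 CPM, from 51, 50 and 92 reads. The libraries of SMARCB1 ordered as those of SMARCA4 did, lowest in replicate 1 and highest in replicate 3. Genes of other complexes, such as CHD3 and BAZ1B, had the same order. ACTL6A (BAF53A), the actin-related subunit of dividing cells, was at 26.8 ± 4.71 CPM, while ACTL6B (BAF53B), which replaces it in mouse neurons, had 0, 0 and 1 reads. The ratio of summed reads of ACTL6A over ACTL6B was 533 (exact 95% interval 95.3 to 21091), a wide interval because it rests on 1 read of ACTL6B.

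The SMARCD family (BAF60) offers 3 alternative subunits that link the complex to transcription factors, and all were measured. SMARCD2 stood at 23.2, 38.5 and 45.4 CPM, SMARCD1 at 9.27, 11.7 and 6.47 and SMARCD3, the form known from heart and skeletal muscle in mice, at 4.75, 6.05 and 4.08. SMARCD2 held 62.3, 68.5 and 81.2% of the family's reads in replicates 1 to 3, SMARCD1 24.9, 20.8 and 11.6% and SMARCD3 12.8, 10.8 and 7.29%. The share of SMARCD1 within the pair SMARCD1 and SMARCD2 was 28.6% (23.3 to 34.3%) in replicate 1 and 12.5% (9.27 to 16.3%) in replicate 3, intervals that do not overlap. SMARCD1 had 66.1, 65.9 and 61.3% of the reads of SMARCD1 and SMARCD3, with overlapping intervals.

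Subunits that define canonical BAF and PBAF were present in both branches. ARID1A and ARID1B, alternative DNA-binding subunits of BAF, were at 73.3 ± 10.5 and 61.5 ± 4.52 CPM. ARID2 and PBRM1, a bromodomain protein, both of which mark PBAF, were at 127 ± 17.4 and 169.9 ± 27.2 CPM. PBRM1 stood at 200.3, 162 and 148 CPM in replicates 1 to 3 and ARID1B at 62.2, 56.6 and 65.6, ARID1B being among the 5 remodeler genes with the smallest spread. ARID1A had 53.8, 59.8 and 49.1% of the reads of ARID1A and ARID1B, and its log2 ratio of 0.25 ± 0.31 was not of 1 sign over the libraries. SS18, the subunit fused in synovial sarcoma, was at 77.3 ± 11.3 CPM.

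The DPF genes, which encode PHD finger subunits that exchange with development, were split. DPF2, the broadly expressed form, stood at 53.1, 71.9 and 88.2 CPM. DPF1, a neuronal form in mice, had 1, 0 and 3 reads, and DPF3, known from heart, muscle and neurons in mice, had 0, 0 and 0. A count of 0 allows up to 0.356, 0.605 and 0.422 CPM in replicates 1 to 3 (3 reads). Of 9 coding genes that neighbour DPF3 in the RefSeq annotation and have a row, 7 were measured. The neural markers, listed because ACTL6B, DPF1 and CHD5 are linked to neurons, summed to 16.5 to 23.4 CPM, 3 of 5 were measured and none was at 0 in every library, and their part in these reads was not tested.

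Further ARID family proteins lie outside SWI/SNF. ARID5B, a partner of the histone demethylase PHF2, had the second most reads of all remodeler genes, at 633, 466 and 589 CPM. Its relative ARID5A, which in mice binds and stabilizes interleukin 6 mRNA, had 3, 1 and 1 reads. ARID5A thus made up 0.056, 0.043 and 0.024% of the reads of the pair. ARID4A and ARID4B, partners of the retinoblastoma protein and of the SIN3 histone deacetylase complex, were close in CPM, at 93.2 ± 15.6 and 95.0 ± 20.6. ARID4A had 48.3, 50.5 and 50.2% of the reads of both, with overlapping counting intervals and a log2 ratio of -0.02 ± 0.07. ARID3A, a factor that binds AT-rich DNA, stood at 4.04, 8.26 and 8.58 CPM, and ARID3B had 0, 5 and 2 reads.

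All 7 of 7 ISWI genes chosen by symbol were measured, with a median of 210.4 CPM. ISWI motors space nucleosomes into regular arrays. SMARCA5 (SNF2H), the motor of the ACF, CHRAC, WICH and NoRC complexes, stood at 853, 814 and 752 CPM. SMARCA1 (SNF2L), the motor of NURF, stood at 289, 206 and 184 CPM. SMARCA5 and SMARCA1 were both highest in replicate 1, and SMARCA5 differed little between libraries. SMARCA5 had 74.7% (73.9 to 75.6%) of the reads of the pair in replicate 1. It had 79.8% (78.7 to 80.9%) in replicate 2 and 80.3% (79.3 to 81.3%) in replicate 3.

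The 5 regulatory partners of ISWI chosen by symbol were measured. BAZ1A (ACF1) was at 245 ± 26.0 CPM, BAZ1B (WSTF), a tyrosine kinase for the histone variant H2A.X, at 78.8 ± 17.9, and BPTF, the reader subunit of NURF, at 210.4 ± 58.5. BAZ2A (TIP5), which silences ribosomal RNA genes within NoRC, stood at 126, 132 and 145 CPM, and BAZ2B, the lowest of the group in CPM, at 59.7, 53.8 and 47.0. BAZ2A was also among the 5 genes with the smallest spread. BPTF and SMARCA1, which work together in NURF, were both highest in replicate 1, at 277, 170.1 and 184 CPM for BPTF. SMARCA5 and BAZ2B were also highest there, as were 39.3% of all genes with 10 or more reads in every library. BAZ1A, BAZ1B and BAZ2A were lowest in replicate 1, and BAZ1A held 79.3, 73.9 and 74.4% of the reads of BAZ1A and BAZ1B.

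CHD motors carry paired chromodomains that bind the histone tail, and 8 of 9 genes were measured. CHD4 (Mi-2 beta), the main motor of the nucleosome remodeling and deacetylase complex NuRD, stood at 189.6, 233 and 281 CPM. CHD3, its alternative, stood at 129.7, 174 and 234 CPM. CHD5, a NuRD motor of neurons and testis in mice, had 6, 9 and 14 reads. CHD3 and CHD4 were both lowest in replicate 1 and highest in replicate 3, and their shares of the family's reads were 59.2, 57.0 and 54.4% for CHD4, 40.5, 42.5 and 45.2% for CHD3 and 0.223, 0.444 and 0.381% for CHD5. Of the reads of CHD4 and CHD3, CHD4 held 59.4% (57.5 to 61.2%) in replicate 1, 57.3% (55.1 to 59.4%) in replicate 2 and 54.6% (53.0 to 56.2%) in replicate 3, and the intervals of replicates 1 and 3 do not overlap. The ratio of summed reads of CHD4 over CHD5 was 164 (exact 95% interval 114 to 245).

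CHD1 and CHD2, the motors that act on transcribed genes, showed the widest swing of any pair in which both genes had 10 or more reads in every library. CHD1, which binds methylated lysine 4 of histone H3, stood at 242, 149 and 138 CPM. CHD2, which is tied to incorporation of the histone variant H3.3, stood at 41.7, 64.9 and 85.3 CPM. CHD1 was highest and CHD2 lowest in replicate 1. CHD1 thus held 85.3% (83.8 to 86.7%) of the reads of both in replicate 1, 69.7% (66.8 to 72.4%) in replicate 2 and 61.9% (59.4 to 64.3%) in replicate 3, 3 intervals that do not overlap.

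Among CHD6 to CHD9, CHD7 had few reads. CHD7, the gene of CHARGE syndrome in humans and a regulator of neural crest development, had 10, 5 and 8 reads, or 1.19, 1.01 and 1.13 CPM, just above the threshold of 1 CPM. CHD8, which binds beta-catenin, was at 105 ± 10.8 CPM, and CHD9 at 228 ± 30.1 CPM. CHD6 stood at 46.4, 42.9 and 46.2 CPM, and its coefficient of variation (CV) of 4.33% was the smallest of the 47 genes with 10 or more reads in every library and below the 5.81% that counting alone would give. CHD7 held 1.16, 1.02 and 0.947% of the reads of CHD7 and CHD8, and CHD7 made up 0.290, 0.278 and 0.307% of the reads of CHD6 to CHD9.

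NuRD joins the CHD motors to histone deacetylases through the MTA, MBD and GATAD2 subunits, and 5 of 5 genes in the table were measured. MTA2 and MTA3, scaffolds of the deacetylase part, were at 75.6 ± 12.1 and 19.2 ± 1.39 CPM. MTA3 stood at 18.1, 20.8 and 18.9 CPM, among the 5 smallest spreads. GATAD2B and GATAD2A, which bridge the deacetylase part to the motor, stood at 87.3, 97.3 and 148 and 23.6, 38.3 and 51.4 CPM. MBD3, the subunit that holds the complex together and has been studied in reprogramming of mouse cells, stood at 4.04, 6.25 and 6.75 CPM, the lowest of the group. MBD3, GATAD2A and GATAD2B were lowest in replicate 1 and highest in replicate 3, as were CHD3 and CHD4, whereas MTA2 and MTA3 were highest in replicate 2. Genes of other complexes, such as SMARCA4, BAZ1B and SRCAP, were also lowest in replicate 1 and highest in replicate 3. Over all genes with 10 or more reads in every library, 40.3% were lowest in replicate 1 and 36.3% highest in replicate 3. The share with both was not counted, so the order is not read as a trait of NuRD. GATAD2A held 21.3, 28.2 and 25.8% of the reads of GATAD2A and GATAD2B, and MTA3 20.5, 18.8 and 21.9% of the reads of MTA3 and MTA2.

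The INO80 family moves nucleosomes and exchanges histone H2A.Z, and its 3 motors were present. SRCAP, which deposits H2A.Z, stood at 84.2, 97.9 and 118 CPM and EP400, the motor of the TIP60 complex, was at 58.5 ± 6.21. INO80 was at 48.5 ± 8.06 CPM. INO80 held 35.0, 37.0 and 26.4% of the reads of INO80 and SRCAP, and the counting interval of replicate 3 lay below both others.

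Of the INO80 accessory subunits, INO80B and INO80E had few reads. INO80C was at 23.8 ± 6.54 and INO80D at 10.3 ± 3.28 CPM. INO80B had 6, 1 and 28 reads, lowest in replicate 2 and highest in replicate 3. INO80E had 4, 35 and 19 reads, lowest in replicate 1 and highest in replicate 2, so the 2 genes did not share a direction. Both spread more than 10-fold between libraries in CPM, 19.6-fold for INO80B and 14.8-fold for INO80E, on few reads. In the RefSeq annotation the spans of 32 of the 56 remodeler genes overlap another gene and those of 9 overlap another coding gene. INO80B, which overlaps RTKN, and INO80E, which overlaps DOC2A and HIRIP3, are among the 9, and how reads over such overlaps were divided is not given in the sources used here.

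SMARCAL1, SMARCAD1 and HELLS work outside large complexes, and SMARCAD1 and HELLS had the widest spread of the 47 genes with 10 or more reads in each library. SMARCAL1, which reanneals DNA at stalled replication forks, was at 51.0 ± 11.3 CPM. SMARCAD1, which helps restore silent chromatin after replication, stood at 106, 57.4 and 42.5 CPM, a CV of 48.6%. HELLS (LSH), needed for DNA methylation of repeats in mice, stood at 50.2, 40.7 and 20.3 CPM, a CV of 41.3%. Both genes were highest in replicate 1 and lowest in replicate 3, and they differed in replicate 2, where SMARCAD1 lay near its replicate 3 value and HELLS near its replicate 1 value. The 5 markers of cycling cells, all measured, summed to 132, 117 and 116 CPM in replicates 1 to 3, with CDK1 at 40, 35 and 13 reads and MKI67 at 39.3, 42.5 and 56.6 CPM, and their part in the spread of HELLS was not tested.

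**Figure D2:**
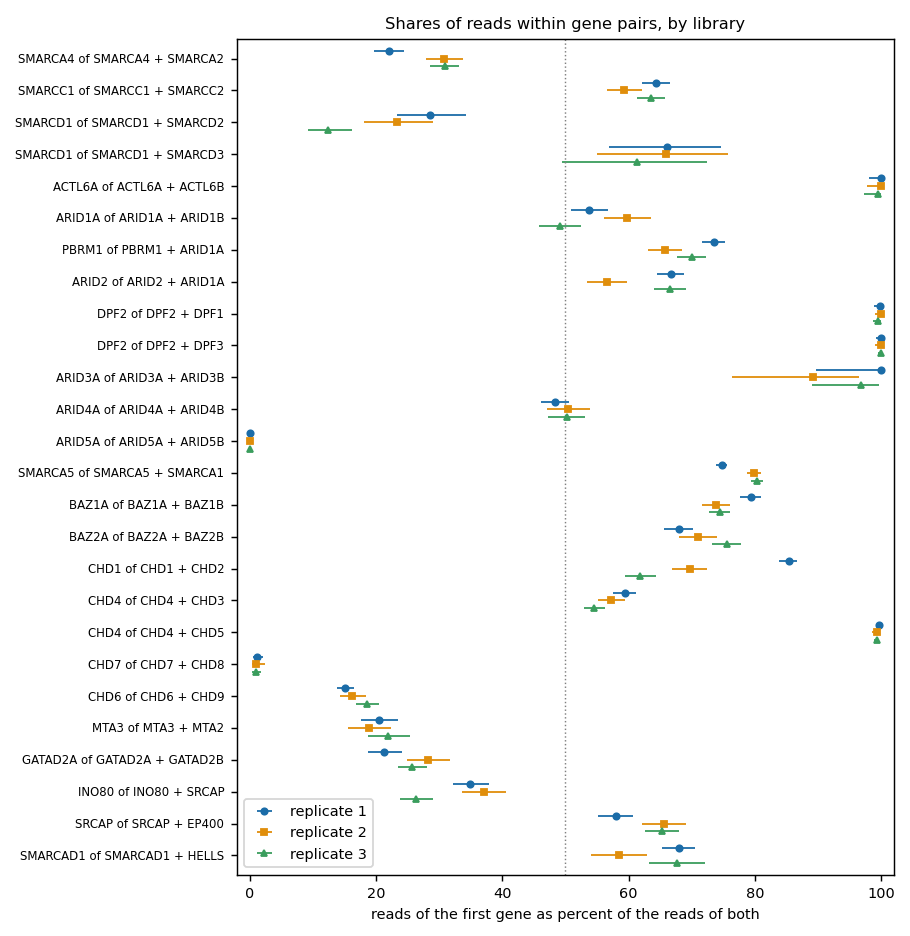
Reads of the first gene as percent of the reads of both, for 26 gene pairs and 3 libraries, with exact 95% binomial intervals as bars and a dotted line at 50%. CHD1 with CHD2 shows 3 separate points between 61.9 and 85.3%, whereas ARID4A with ARID4B stays within its intervals around the dotted line.

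Of 28 planned gene pairs 26 had both genes in the table, and 24 of these had the same direction in every library. The 2 exceptions were ARID1A with ARID1B and ARID4A with ARID4B. The exact two-sided sign-flip permutation test of 3 libraries cannot give a p below 0.25, or 0.271 after Benjamini-Hochberg adjustment over the 26 pairs, so pairs are described by direction, mean and SD. In 16 of 26 pairs the counting intervals of some 2 libraries lay apart, and these intervals do not include the spread between replicates beyond counting. No such count was made for other gene pairs, so the number is not read as a trait of remodeler genes.

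Whether any remodeler gene varied between replicates more than genes of like abundance was tested across the whole table. Of 47 remodeler genes with 10 or more reads in every library, 0 were called at an adjusted p under 0.05 (edgeR trended dispersion, negative binomial Pearson statistic, Benjamini-Hochberg adjustment), against a background of 0.0% of 10434 genes. With the DESeq2 dispersion trend the count was also 0. At an unadjusted p under 0.05 it was 1 of 47, SMARCAD1 (adjusted p = 0.821 by edgeR), against 5.06% of all genes. Of genes simulated with a change in 1 replicate, the test called 2 of 97 raised 2-fold and 60 of 98 raised 4-fold, so spreads near 2-fold such as those here were mostly out of its reach.

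The spread of the remodeler genes between libraries was set beside that of all genes. Their median CV was 17.9% (quartiles 13.5 and 28.9%), beside 22.4% (13.1 and 34.8%) over all 10434 genes. Between the highest and the lowest library 7 of 47 differed 2-fold or more (14.9%, background 24.6%), and 28 of 47 differed under 1.5-fold (59.6%, background 46.4%). These shares are not matched for abundance: the 48 measured remodeler genes had a median of 74.5 CPM, against 20.5 CPM over all measured genes. The CV exceeded that of counting alone in 45 of 47 genes. The same count over all 10434 genes was not made, so it is not read as a trait of remodeler genes. The 5 largest belonged to SMARCAD1, HELLS, SMARCA4 (38.1%), GATAD2A (36.7%) and ARID3A (36.4%). The 5 smallest belonged to CHD6, SMARCA5 (6.34%), BAZ2A (7.13%), MTA3 (7.22%) and ARID1B (7.35%).

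**Figure D3:**
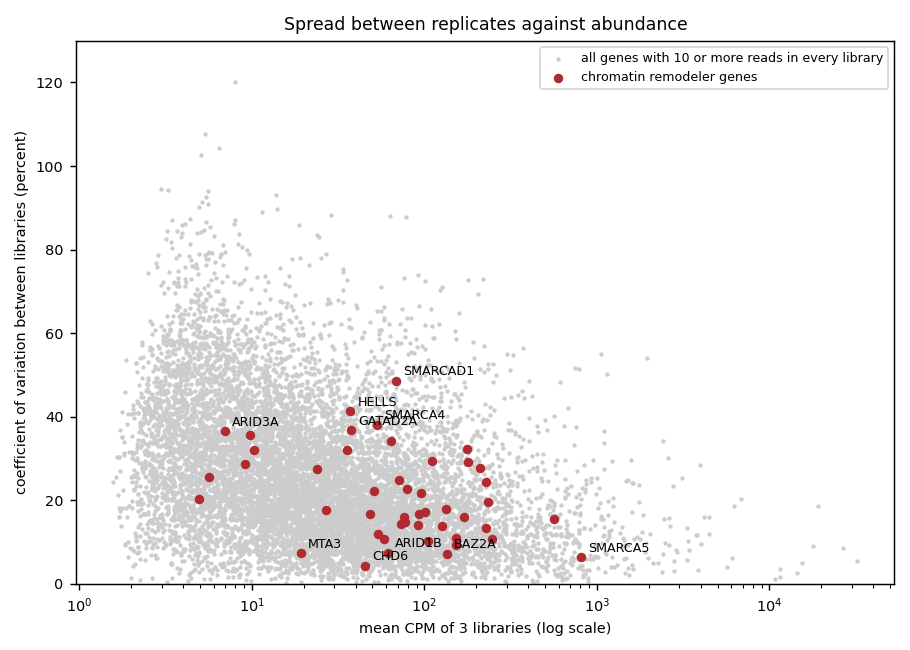
Coefficient of variation between 3 libraries in percent against mean CPM on a log axis, for all 10434 genes with 10 or more reads in every library (grey) and the 47 remodeler genes among them (red). The remodeler genes range from 4.33% (CHD6) to 48.6% (SMARCAD1), within the cloud of all genes.

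The highest and the lowest library differed among the genes. The highest library was replicate 1 for 15, replicate 2 for 9 and replicate 3 for 23 of 47 genes, beside 39.3, 24.4 and 36.3% of all genes. The lowest was replicate 1 for 21, replicate 2 for 10 and replicate 3 for 16, beside 40.3, 24.2 and 35.4%. By group, replicate 1 was the highest library for 0 and the lowest for 2 of 2 SWI/SNF motors. It was the highest for 0 and the lowest for 5 of 8 core subunits. Of 6 subunits that define BAF or PBAF, it was the highest for 3 and the lowest for 1. It was the highest for 3 and the lowest for 1 of 4 other ARID genes. Among 7 ISWI genes it was the highest for 4 and the lowest for 3. Among 7 CHD genes it was the highest for 3 and the lowest for 3. For 5 NuRD subunits it was the highest for 0 and the lowest for 4. For 5 INO80 genes it was the highest for 0 and the lowest for 1. Of SMARCAL1, SMARCAD1 and HELLS it was the highest for 2 and the lowest for 1. Counts of this size in groups of 2 to 8 genes were not tested.

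**Figure D4:**
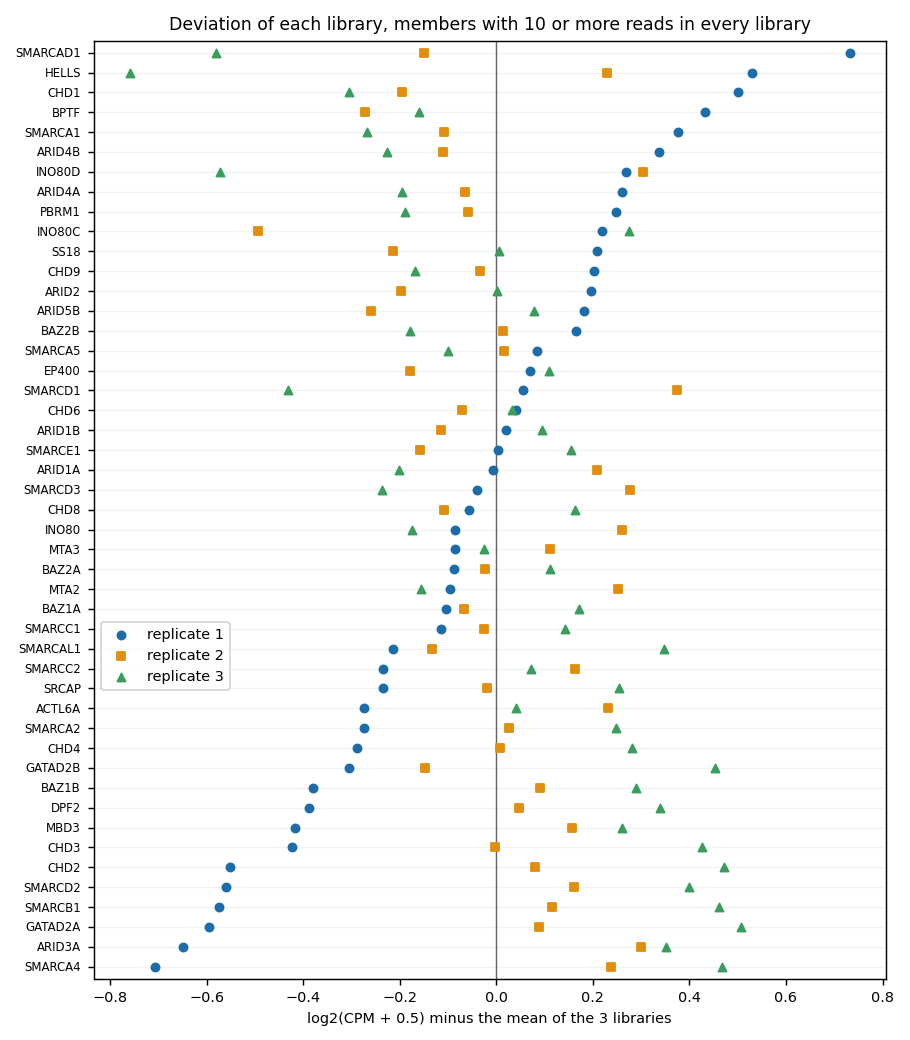
log2(CPM + 0.5) of each library minus the mean of the 3 libraries, for the 47 remodeler genes with 10 or more reads in every library, ordered by the value of replicate 1 (circles, replicate 1; squares, replicate 2; triangles, replicate 3). SMARCAD1 is at the top and SMARCA4 at the bottom of the order.

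Other genes of the same complexes, outside the symbol rule, were examined as a list of 67, of which 62 have a row and 55 were measured. In the list for SWI/SNF, not limited to canonical BAF and PBAF, 9 of 11 were measured. The bromodomain subunit BRD7 at 113 ± 8.43 and GLTSCR1L at 54.0 ± 8.75 CPM were highest, and BCL7A (1, 3 and 6 reads) and BCL11A (13, 5 and 7 reads) fell below the threshold. For ISWI 5 of 6 were measured, led by the SMARCA5 partner RSF1 (204 ± 33.5) and the histone-binding RBBP4 (119 ± 20.5), and CECR2 had 2, 0 and 3 reads. For NuRD and the CHD motors 9 of 10 were measured, led by ADNP (172 ± 19.0), which binds CHD4, and the deacetylase HDAC1 (141 ± 9.39), with PWWP2B at 1, 6 and 1 reads.

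For INO80, SRCAP and TIP60 21 of 23 were measured, led by MORF4L1 (465 ± 74.2) and MORF4L2 (266 ± 18.9), closely related subunits between which reads may be hard to split. TFPT had 5, 1 and 8 reads. RUVBL2, the AAA+ helicase that forms a ring with RUVBL1 (24.9 ± 9.41) in INO80, SRCAP and TIP60, was listed at 0 reads in every library. It sits in the RefSeq annotation between GYS1 and LHB, both also at 0, and of its 9 nearest coding neighbours with a row 5 were at 0 reads and 3 were measured, so its level is uncertain. In a list of other SNF2 motors with DAXX and CDCA7, which are partners of such motors, 11 of 12 genes were measured, led by ATRX (205 ± 142), which deposits H3.3 at heterochromatin, and HLTF (125 ± 47.2), which remodels replication forks, and RAD54L had 7, 13 and 14 reads.

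Of 54 such partners with 10 or more reads in every library, 0 were called in the variability test at an adjusted p under 0.05 by edgeR, and 3 had an unadjusted p under 0.05, against 5.06% of all genes. ATRX stood at 365, 159 and 91.3 CPM (adjusted p = 0.243 by edgeR), a CV of 69.4%. HDAC2, the other NuRD deacetylase, stood at 173, 123 and 41.9 CPM (adjusted p = 0.417 by edgeR), and UCHL5, a deubiquitinase of INO80, at 93.5, 63.5 and 30.8 CPM. All 3 were highest in replicate 1 and lowest in replicate 3, as were SMARCAD1, HELLS and other listed genes such as PBRM1 and RSF1. Over all genes with 10 or more reads in every library, 39.3% were highest in replicate 1 and 35.4% lowest in replicate 3. The share with both was not counted, so the order is not read as a trait of these genes. HDAC2 and UCHL5 were named after their values were seen. Without replicate 1, HDAC2 was called (adjusted p = 0.0138 by edgeR). HDAC1 stood at 140.3, 151 and 132 CPM, with replicate 2 the highest library.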

How the data were processed

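The authors deposited whole-number read counts per gene symbol, not normalized, with 1 column for each of 3 replicates and 5 summary rows, which were left out of library sizes and tests. The submitters' processing notes name TopHat2 2.0.10, HTSeq 0.6.1 and bcl2fastq 2.18.0.12. How reads were stranded, which annotation and build they were counted on and in which mode is not given in the sources used here. How far reads of overlapping genes were kept apart is therefore uncertain. Per the labels' protocols, cDNA was amplified isothermally from a single primer before 500 ng entered each library, and single reads had 100 bases. Reads in no gene were 58.9 to 62.0% of those counted, and reads with several alignments, 7.52 to 7.99%, are missing from the gene counts. Reads set apart as ambiguous between genes, 0.235 to 0.253%, are missing as well.

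CPM was computed with edgeR 4.0.16 in R 4.3.3 (TMM factors 0.978, 1.02 and 0.998), and log2 values used a pseudocount of 0.5 CPM. Genes were described by mean and SD, pairs by within-library log2 ratios and exact binomial intervals (Clopper-Pearson, scipy 1.17.1), which cover counting error only. They treat reads as independent, but amplified reads carry no molecular identifiers, so copies of 1 molecule cannot be told apart and the intervals may be too narrow. Variability was tested on the 10434 genes that had at least 10 counts in each library, by a negative binomial Pearson statistic on the edgeR trend (chi-square, 2 degrees of freedom) at a false discovery rate of 0.05, and was checked on simulated data for these genes, where 6 of 9850 unchanged genes were called. DESeq2 1.42.0 gave alternative scalings and dispersions. The text names every member, prints replicate values for the highest and lowest of each group, for those under 1 CPM in some library and for the 5 largest and 5 smallest CVs, and names the 2 highest and the low partners of each complex. Members and lists were chosen with earlier results of these data known. All 56 symbols matched the RefSeq table of assembly ARS-UCD2.0, used only for which genes neighbour or overlap each other. The planned division by gene length was not made here.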

Additional observations from a re-analysis of the deposited data

How the results depend on the processing

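The count of remodeler genes measured, 48, was 49 at a threshold of 0.5 CPM and 44 at 5 CPM, was 48 under DESeq2 size factors or total gene counts, and was 48 to 50 with each replicate left out. Their share of gene counts, 0.545% ± 0.011, was 0.693% when the 20 most abundant genes were taken out of the denominator. With each replicate left out, the median of 62.7 CPM over all 56 genes ranged from 58.1 to 63.7 CPM, and the list medians ranged from 69.3 to 72.7 CPM for subunits that define BAF and PBAF (72.2 with all libraries), from 177 to 231 CPM for ISWI (210.4) and from 45.5 to 53.6 CPM for SMARCAL1, SMARCAD1 and HELLS (51.0). The other 6 list medians moved by less than the SD between replicates. The log2 ratio of ARID4A over ARID4B, -0.02 ± 0.07, reversed to 0.020 without replicate 1 and was -0.042 at its lowest with a replicate left out, and the other 25 pairs kept their direction with each replicate left out and at pseudocounts of 0.1 and 1. Variability calls over all genes were 0 without a count filter, with DESeq2 size factors and with the DESeq2 trend, and with each replicate left out ranged from 0 to 15, with 15 without replicate 1, where HDAC2 was called (adjusted p = 0.0138 by edgeR, against 0.395 to 0.996 otherwise). Remodeler genes had 0 calls under each of these 6 settings. No paired analysis was possible because the series has 1 group. Depth limits the 8 genes under 1 CPM in some library, whose differences between libraries rest on few reads.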
